A study of Mus musculus with 12 samples.

Results

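The nuclear genes of the mitochondrial respiratory chain and of ATP synthase were followed in mouse kidney after colistin. Members were the array probes whose gene symbol starts with Nduf, is Sdha to Sdhd, or starts with Uqcr, with Cox4 to Cox8 or with Atp5. Of 45281 probes on the array, 119 probes of 81 symbols had such a name, and 98 of them, of 74 genes, passed the filter: a detection p-value under 0.01 on at least 4 of the 12 arrays. By symbol these are 74 of 11834 genes that passed the filter anywhere on the array. Of these 98 probes, 95 were detected on every array. The other 21 named probes were dropped; 20 were detected on 0 arrays and 1, a further probe of Sdhb, on 1. For 7 genes no probe was kept: Ndufs1 of complex I, Sdha of complex II, Uqcrfs1 and Uqcrq of complex III, and Cox4i2, Cox7b2 and Cox8c of complex IV. Their probes gave no signal above the negative controls, so nothing is said here of those transcripts. The member nearest to the filter was Cox8b, detected on 4 arrays.

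The study compared total kidney RNA of male C57BL/6 mice, 10 weeks old. A group of 6 mice received 0.1% saline, 2 times a day, and a group of 6 received colistin, 16 mg/kg per day over 2 doses, with 72 hours of exposure. Colistin, a polymyxin antibiotic, is known to harm the kidney. Single-colour Illumina MouseWG-6 arrays were used, 2 BeadChips in all, and every BeadChip carried 3 saline and 3 colistin kidneys. Positions 1, 3 and 5 went to saline and positions 2, 4 and 6 to colistin on both, so the effects of array position and of treatment cannot be told apart.

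The respiratory chain passes electrons from NADH and succinate to oxygen. Complex I oxidises NADH, complex II oxidises succinate, complex III passes the electrons on to cytochrome c, and complex IV, cytochrome c oxidase, reduces oxygen. Complexes I, III and IV pump protons, and ATP synthase (complex V) uses the gradient to make ATP. The proximal tubule, the main cell type of the kidney cortex, depends on this supply for its sodium-driven reabsorption, and most of the subunits are encoded in the nucleus.

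The signal of these genes was close to that of saline mice, with small differences that mostly lay below it. No member was called at an adjusted p under 0.05 (limma, Benjamini-Hochberg over 16179 kept probes); the smallest adjusted p was 0.361, for Atp5e. Over all kept probes 0.457% were called, 0.321% higher and 0.136% lower in colistin mice. Counting each gene by its brightest kept probe, 49 of 74 genes had a log2 change (colistin minus saline) below 0 and 25 above. That is 66.2% of the genes below 0, and 68.4% of the 98 member probes, against 46.9% of all kept probes. The median change was -0.07, against 0.01 over all kept probes. At an unadjusted p under 0.05, 7 genes were lower and 0 higher. These 7 are 9.46% of the genes, each counted by its brightest probe. Counted by probe, 7 of 98 members (7.14%) were lower. Of all kept probes 5.35% were lower and 5.56% higher at that threshold. The 7 are Atp5e and the complex I genes Ndufc1, Ndufb9, Ndufs8, Ndufb7, Ndufa13 and Ndufb10. RNA of whole kidney was measured, so fewer cells of a type and less RNA per cell cannot be told apart.

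The intervals describe the precision of the fitted changes under the main normalization, and do not cover what other processing would give. The 95% interval of the change, which is not adjusted for the number of genes, lay within 1.5-fold in either direction for 64 of 74 genes and within 2-fold for 73. The exception at 2-fold was Cox8b. The fitted changes ran from -0.51 (Ndufb9) to 0.64 (Cox8b), and 54 of the 74 were smaller than 0.2 in size.

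**Figure D1:**
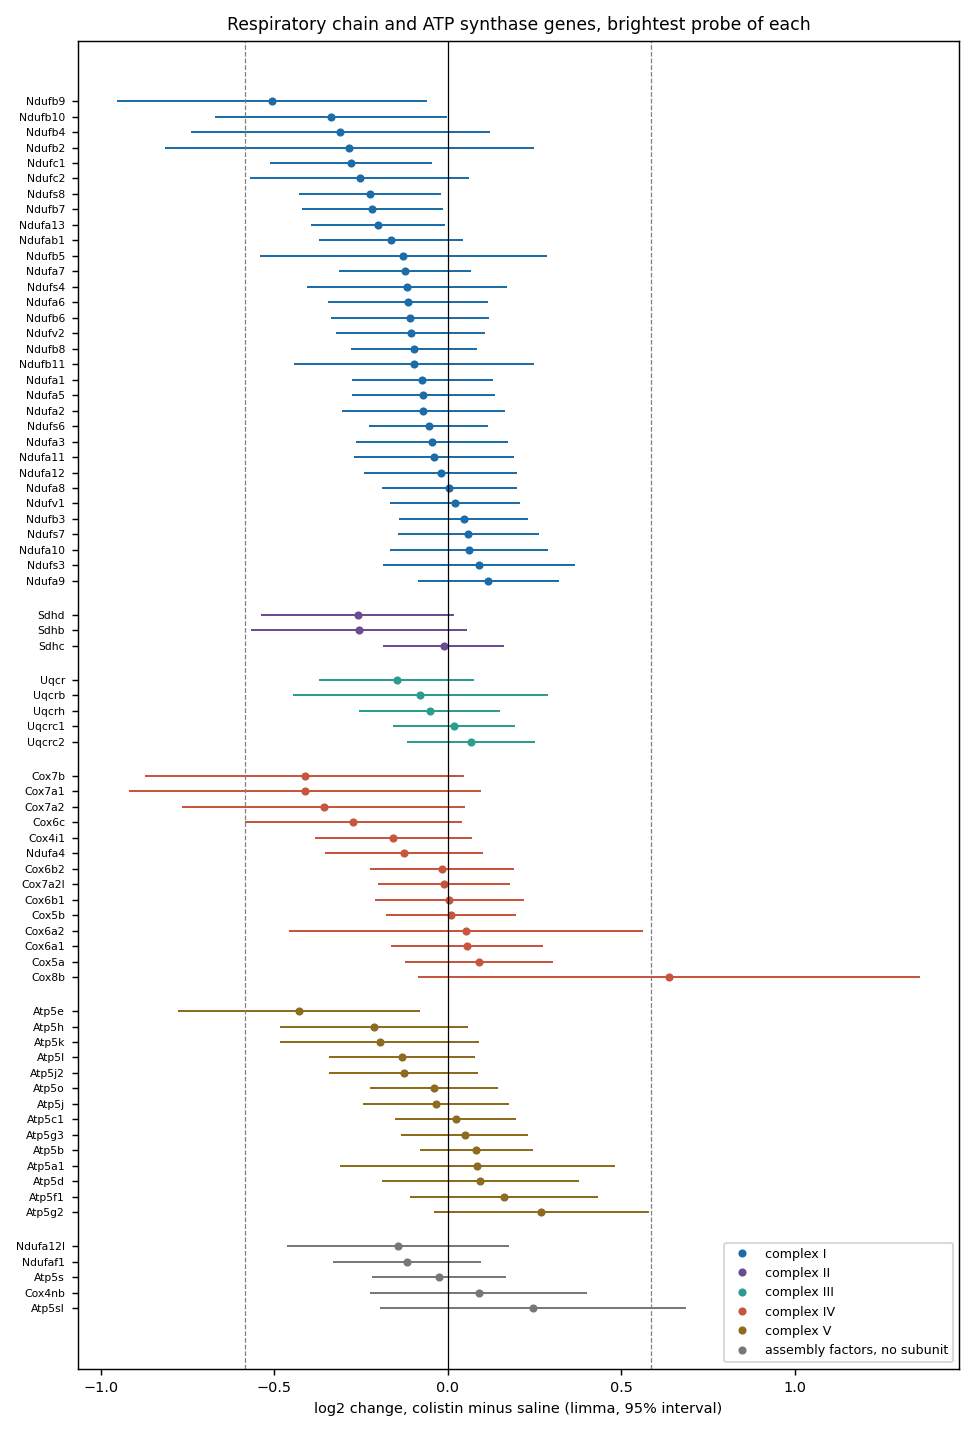
Log2 change (colistin minus saline, horizontal axis) of member genes by their brightest probe, sorted within each complex, with limma's 95% intervals as bars; dashed lines mark 1.5-fold in either direction and Ndufa4 is drawn with complex IV. Most complex I points lie left of 0, while those of complexes IV and V lie on both sides, and most intervals stay between the dashed lines.

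A check of the tissue found 11 of 12 proximal tubule markers kept, with a mean log2 level of 10.49 to 11.29 in saline mice and 11.04 to 11.24 in colistin mice. The arrays detected 14661 to 16154 probes each. The arrays of saline mice 1, 2 and 5 were unlike the rest of their group. Saline mouse 1 held the highest value of 14.5% and the lowest of 13.5% of all kept probes, and saline mouse 5 those of 11.1% and 12%. Saline mouse 5 had a 95th percentile of raw signal of 475, against 752 to 949 on the other arrays, and saline mouse 2 held the lowest value of 28.3% and the highest of 25.2% of all kept probes. Of the 74 member genes, 43 had their highest normalized value in saline mouse 2 or 5, 23 in mouse 2 and 20 in mouse 5, and 18 had their lowest there. The array of saline mouse 5 was dim, and its high normalized values could come from low raw signals. Ndufs8 had its lowest raw signal there, 2955, and a normalized value of 12.06, below saline mouse 2 alone. Ndufa13 was highest there at 13.83, with a raw signal of 11645 against 12217 to 15302 in saline mice 1 to 4. Without saline mice 2 and 5 the median change of the members was -0.02, 48 of 74 genes lay below 0, and 0 were at an unadjusted p under 0.05 (limma). These 2 mice were picked after their values were seen. Members were most often highest in them, so leaving them out makes decreases smaller. Without saline mouse 1, lowest for 15 of the 74 genes, the median was -0.11 and 18 genes were at that threshold. Ndufb9 was then at -0.58, Ndufs8 at -0.28 and Sdhb at -0.35.

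Promoter sequences of a few members are shown, among them genes of tissue-restricted subunits. Windows of 300 bases (250 before and 50 after the annotated start; RefSeq, GRCm38.p6) were found for 63 of the 74 genes, 69 windows in all. The motifs searched on both strands were CCGGAAG, bound by ETS factors such as GABP, GCGC and TGCGC with any base between them, bound by NRF1, and AANATGGC, bound by YY1; these are factors known to control nuclear respiratory genes. The ETS motif was in 23.2% of the member windows, against 8.86% of all 32851 promoter windows. The NRF1 motif was in 23.2%, against 4.6%, and the YY1 motif in 27.5%, against 6.05%. At least 1 of the 3 was in 63.8% of member windows and 17.4% of all. The 32 complex I windows held the YY1 motif in 37.5% and the ETS motif in 12.5%. A match describes the letters and does not show binding. In the windows printed 5′ to 3′ here, capitals mark the matches. Ndufc1 has a YY1 match 22 bases after the start, Sdhd an NRF1 and an ETS match, Cox6a1 a pair of NRF1 matches and an ETS match, and Atp5e an ETS match 102 bases before the start. The windows of Cox7a1 and Cox8b, subunits typical of muscle and brown fat, hold none of these letters. Only 44 of the 69 member windows hold a match, so its absence does not set these genes apart. The other windows printed here all hold a match and do not represent the general subunits.
Ndufc1, chr3:51408906-51409205, minus strand: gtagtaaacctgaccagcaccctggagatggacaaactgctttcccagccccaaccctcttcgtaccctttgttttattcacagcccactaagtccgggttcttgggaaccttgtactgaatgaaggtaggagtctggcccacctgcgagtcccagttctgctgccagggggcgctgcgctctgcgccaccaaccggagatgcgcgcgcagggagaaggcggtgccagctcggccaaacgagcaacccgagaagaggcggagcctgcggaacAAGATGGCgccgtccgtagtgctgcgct
Sdhd, chr9:50603800-50604099, minus strand: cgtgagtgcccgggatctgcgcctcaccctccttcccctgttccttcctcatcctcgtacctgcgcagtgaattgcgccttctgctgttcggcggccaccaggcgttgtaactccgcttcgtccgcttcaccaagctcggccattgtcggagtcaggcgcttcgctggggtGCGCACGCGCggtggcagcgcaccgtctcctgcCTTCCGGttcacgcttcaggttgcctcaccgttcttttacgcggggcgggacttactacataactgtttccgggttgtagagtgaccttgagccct
Cox6a1, chr5:115348909-115349208, minus strand: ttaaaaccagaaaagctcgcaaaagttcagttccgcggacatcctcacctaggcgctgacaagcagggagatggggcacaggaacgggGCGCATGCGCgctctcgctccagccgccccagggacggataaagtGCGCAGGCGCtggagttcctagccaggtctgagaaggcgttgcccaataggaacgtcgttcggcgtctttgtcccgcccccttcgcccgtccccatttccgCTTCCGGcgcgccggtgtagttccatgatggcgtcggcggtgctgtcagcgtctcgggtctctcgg
Atp5e, chr2:174464052-174464351, minus strand: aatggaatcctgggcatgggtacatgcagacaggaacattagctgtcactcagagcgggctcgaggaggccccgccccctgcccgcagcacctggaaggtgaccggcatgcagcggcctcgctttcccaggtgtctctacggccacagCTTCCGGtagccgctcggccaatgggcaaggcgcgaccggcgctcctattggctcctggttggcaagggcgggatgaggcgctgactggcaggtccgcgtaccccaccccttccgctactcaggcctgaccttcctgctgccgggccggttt
Cox7a1, chr7:30183921-30184220, plus strand: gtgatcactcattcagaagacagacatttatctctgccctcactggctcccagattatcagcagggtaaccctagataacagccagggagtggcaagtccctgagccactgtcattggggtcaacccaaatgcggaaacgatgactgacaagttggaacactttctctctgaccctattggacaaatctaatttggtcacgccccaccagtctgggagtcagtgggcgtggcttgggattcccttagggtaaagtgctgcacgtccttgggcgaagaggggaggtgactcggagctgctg
Cox8b, chr7:140900397-140900696, minus strand: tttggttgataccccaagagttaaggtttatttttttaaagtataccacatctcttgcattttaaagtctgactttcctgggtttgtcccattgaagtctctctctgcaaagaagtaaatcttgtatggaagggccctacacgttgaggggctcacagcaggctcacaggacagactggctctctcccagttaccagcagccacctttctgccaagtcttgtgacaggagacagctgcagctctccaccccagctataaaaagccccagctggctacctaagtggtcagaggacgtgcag

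Complex I contributed 33 genes, of which 25 had a change below 0 and 0 were called. The median was -0.10, and -0.018 without saline mice 2 and 5. The direction was uneven within the complex. Of its 27 accessory subunits, which surround the catalytic core and are needed for its assembly and stability, 23 were below 0, with a median of -0.11. Of the 6 core subunits kept, which carry the flavin, the iron-sulfur clusters or the quinone site, 2 were below 0, with a median of 0.04. The difference between these subsets was not tested. Among the core subunits, Ndufv2 was at -0.11, Ndufv1 at 0.02, Ndufs7 at 0.06 and Ndufs3 at 0.09.

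Ndufc1, a small accessory subunit of the membrane arm, was the member whose groups did not overlap. Its log2 signal ran from 12.42 to 12.91 in saline mice, with a median of 12.56, and from 11.95 to 12.42 in colistin mice, with a median of 12.35. The highest colistin value lay below the lowest saline value by less than the last digit given. Colistin mouse 4 was the lowest and saline mouse 2 the highest. The change was -0.28 ± 0.11 (SE; adjusted p = 0.374, limma), and -0.20 without saline mice 2 and 5. Among all kept probes 0.402% had every colistin mouse below every saline mouse, and 0.6% had every one above; no member was of the latter kind. A second Ndufc1 probe overlapped between the groups and was at -0.14 ± 0.10 (SE; adjusted p = 0.593, limma).

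Ndufb9, another accessory subunit of the membrane arm, had the lowest change of all members. Its log2 signal was 7.88 to 9.29 in saline mice (median 8.34) and 7.48 to 8.14 in colistin mice (median 8.00). Saline mice 5 and 2 held the 2 highest values and saline mice 1, 3 and 6 lay within the colistin range. The change was -0.51 ± 0.21 (SE; adjusted p = 0.397, limma), with an interval of -0.95 to -0.06, and -0.21 without saline mice 2 and 5.

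Ndufs8 was the core subunit with a change past the unadjusted threshold; it carries iron-sulfur clusters on the path to the quinone. Its log2 signal was 11.64 to 12.15 in saline mice (median 11.90) and 11.58 to 11.75 in colistin mice (median 11.69). Saline mouse 1 lay within the colistin range, and the other 5 saline mice lay above it. The change was -0.22 ± 0.095 (SE; adjusted p = 0.413, limma), and -0.12 without saline mice 2 and 5.

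Ndufa13, also known as GRIM-19, was the brightest complex I probe. Its log2 signal was 13.49 to 13.83 in saline mice (median 13.67) and 13.33 to 13.58 in colistin mice (median 13.45), and the groups overlapped. The change was -0.20 ± 0.090 (SE; adjusted p = 0.438, limma), and -0.12 without saline mice 2 and 5. Ndufb2, an accessory subunit, had the widest spread of the complex, from 6.02 in saline mouse 3 to 7.86 in saline mouse 5, and its change of -0.28 ± 0.25 (SE; adjusted p = 0.655, limma) was -0.09 without saline mouse 5, -0.46 without saline mouse 3, -0.17 without colistin mouse 4 and 0.01 without saline mice 2 and 5. The accessory subunit genes Ndufb10 and Ndufb7 were at -0.34 ± 0.15 and -0.22 ± 0.094 (SE; adjusted p = 0.452 and 0.423, limma). The complex I assembly factor genes Ndufaf1 and Ndufa12l, now named Ndufaf2, were at -0.12 ± 0.099 and -0.14 ± 0.15 (SE; adjusted p = 0.642 and 0.704, limma).

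**Figure D2:**
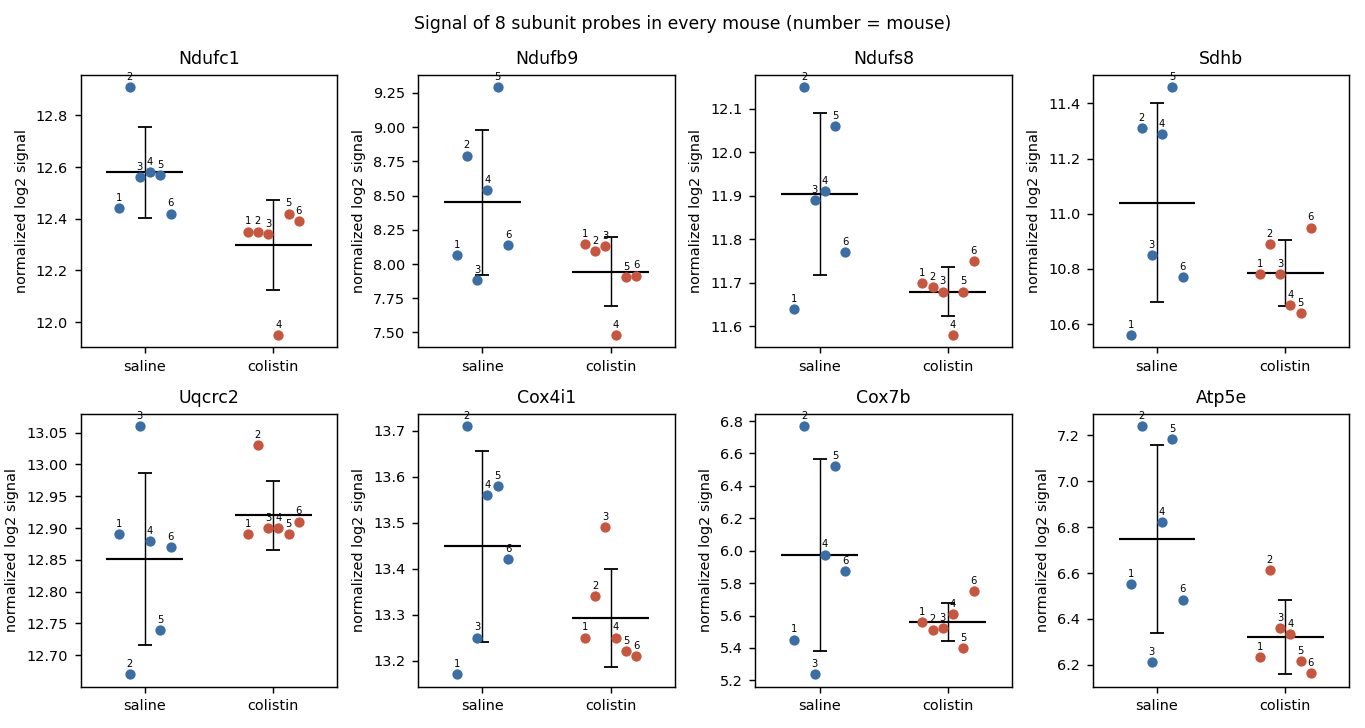
Normalized log2 signal (vertical axis, scaled separately for each gene) of 8 subunit probes in each of the 12 mice, with the mouse's number beside its point, the group mean as a line and the SD as a bar. The saline mice are the more scattered group in 7 of the 8 panels, Ndufc1 being the exception, and saline mouse 2 or 5 is at the top in all but the Uqcrc2 panel, where both are at the bottom.

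The saline group was the more variable one over the family as a whole. Its SD was the larger for 59 of 74 genes, which is 79.7%, and for 78.8% of all kept probes.

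Complex II is also an enzyme of the citric acid cycle, and 3 of its 4 genes were measured. The iron-sulfur subunit gene Sdhb had a log2 signal of 10.56 to 11.46 in saline mice (median 11.07) and 10.64 to 10.95 in colistin mice (median 10.78). Saline mice 2, 4 and 5 lay above every colistin mouse, and saline mice 1, 3 and 6 lay within or below the colistin range. The change was -0.26 ± 0.14 (SE; adjusted p = 0.524, limma), its second probe was at -0.28 ± 0.15 (SE; adjusted p = 0.505, limma), and without saline mice 2 and 5 the first was at -0.08.

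Sdhd, a membrane anchor with part of the quinone site, was dimmer. It ran from 6.70 to 7.53 in saline mice (median 6.98) and from 6.61 to 7.03 in colistin mice (median 6.76). The groups overlapped, with saline mouse 5 highest. The change was -0.26 ± 0.13 (SE; adjusted p = 0.483, limma). It was at -0.16 without saline mouse 5 and -0.17 without saline mice 2 and 5, and at -0.04 on BeadChip 1 and -0.48 on BeadChip 2. Sdhc, the other anchor, was nearly level: 11.85 to 12.09 in saline mice and 11.89 to 12.08 in colistin mice, a change of -0.01 ± 0.081 (SE; adjusted p = 0.957, limma) with an interval of -0.19 to 0.16. The median over the 3 genes was -0.26; it was -0.04 on BeadChip 1 and -0.36 on BeadChip 2.

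Complex III gave 5 genes, 3 below 0 and 2 above, with changes of -0.15 to 0.07, a median of -0.05 and 0 called. Uqcr, now Uqcr11, a small subunit, was at 12.85 to 13.42 in saline mice (median 13.07) and 12.76 to 13.04 in colistin mice (median 12.97), a change of -0.15 ± 0.10 (SE; adjusted p = 0.592, limma). It was at -0.08 without saline mouse 2 and -0.04 without saline mice 2 and 5. Uqcrh, the hinge protein that helps cytochrome c1 meet cytochrome c and the brightest of the 5, was at -0.05 ± 0.094 (SE; adjusted p = 0.830, limma). The core protein gene Uqcrc2 had the opposite layout: 12.67 to 13.06 in saline mice (median 12.87) and 12.89 to 13.03 in colistin mice (median 12.90). Saline mice 2 and 5 were its 2 lowest values and saline mouse 3 its highest. Its change was 0.07 ± 0.085 (SE; adjusted p = 0.757, limma), and -0.01 without those mice.

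Complex IV gave 13 genes, 7 below 0 and 6 above, with a median of -0.01 and 0 called. Its small nuclear subunits surround a core encoded by mitochondrial DNA, and several come as a form found in most tissues and a form restricted to some. Of the general forms, Cox4i1 was at 13.17 to 13.71 in saline mice (median 13.49) and 13.21 to 13.49 in colistin mice (median 13.25), a change of -0.16 ± 0.10 (SE; adjusted p = 0.574, limma), and -0.10 without saline mouse 2. Its partner form Cox4i2, typical of lung, was detected on 0 arrays. Cox6a1 was at 0.05 ± 0.10 (SE; adjusted p = 0.838, limma) and was lowest, at 13.01, in saline mouse 2. Cox6b1, the brightest probe of the complex, was at 0.00 ± 0.10 (SE; adjusted p = 0.988, limma), and Cox6b2, its testis form, at -0.02 ± 0.096 (SE; adjusted p = 0.953, limma).

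Other subunit genes of complex IV were lower by more, with wide saline groups. Cox7b ran from 5.24 to 6.77 in saline mice (median 5.92) and from 5.40 to 5.75 in colistin mice (median 5.54). Saline mice 2 and 5 were its highest and saline mice 3 and 1 lay low in or below the colistin range. The change was -0.41 ± 0.21 (SE; adjusted p = 0.497, limma), and -0.25 without saline mouse 2 and -0.08 without saline mice 2 and 5. Cox7a2, the general counterpart of Cox7a1, was at 8.19 to 9.48 in saline mice (median 9.06) and 8.35 to 8.67 in colistin mice (median 8.53). The groups overlapped, and its change was -0.36 ± 0.19 (SE; adjusted p = 0.503, limma), -0.24 without saline mouse 5 and -0.13 without both. Ndufa4, long counted as complex I and now placed in complex IV, was at -0.13 ± 0.11 (SE; adjusted p = 0.639, limma).

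Among the tissue-restricted forms, Cox7a1 and Cox8b were high in a few animals. Cox7a1, the form of heart, skeletal muscle and brown fat, was at 11.08 in saline mouse 2 and 10.17 in saline mouse 5, and at 9.18 to 9.77 in the other 10 mice. Its raw signal was 2114 in saline mouse 2, but 721 in saline mouse 5, within the 705 to 997 of the other 10 mice. Its change of -0.41 ± 0.24 (SE; adjusted p = 0.531, limma) was -0.18 without saline mouse 2 alone and -0.05 without both mice. Cox6a2, the muscle form, was detected on all 12 arrays, at 5.77 to 6.87 in saline mice and 5.66 to 7.24 in colistin mice, a change of 0.05 ± 0.24 (SE; adjusted p = 0.939, limma). It was at -0.32 on BeadChip 1 and 0.43 on BeadChip 2. Of the muscle markers, Ckm, Acta1, Myh1, Myh4, Myl1, Tnnt3, Actc1 and Myh6 were detected on 0 arrays. Mylpf, a myosin light chain gene, was detected by 1 of its probes in saline mice 2, 4, 5 and 6 and colistin mouse 5, at 4.49 to 5.31 over all mice with saline mouse 5 highest. The part of muscle tissue in the Cox7a1 and Cox6a2 signals was not tested.

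Cox8b, a form of muscle and brown fat, was above background in 1 of 6 saline and 3 of 6 colistin mice. It was at 5.04 in saline mouse 1, 5.95 in colistin mouse 1, 6.30 in colistin mouse 3 and 4.96 in colistin mouse 4, and at 4.14 to 4.31 in the other 8, where it was not detected. The fitted change of 0.64 ± 0.34 (SE; adjusted p = 0.503, limma) rests on those few arrays; it was 0.37 without colistin mouse 3, -0.03 on BeadChip 1 and 1.30 on BeadChip 2. The adipocyte gene Cfd, which encodes adipsin, was at 11.64 in saline mouse 1, 9.19 in colistin mouse 3, 7.02 in colistin mouse 1 and 6.52 in colistin mouse 4, and at 6.24 or less in the other 8. Adipoq and Cidec were detected in saline mouse 1 and colistin mouse 3, Cidea in colistin mice 1 and 3, and Ucp1, Elovl3, Dio2, Fabp4 and Retn on 0 arrays. Other adipocyte markers had another layout: Lep was detected in saline mice 1 and 2, and Car3, detected on 8 arrays, was at 7.16 in saline mouse 1 and 5.53 in saline mouse 4, above colistin mice 1, 3 and 4 at 5.09 to 5.26. The part of adipose tissue in the Cox8b signal was not tested.

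**Figure D3:**
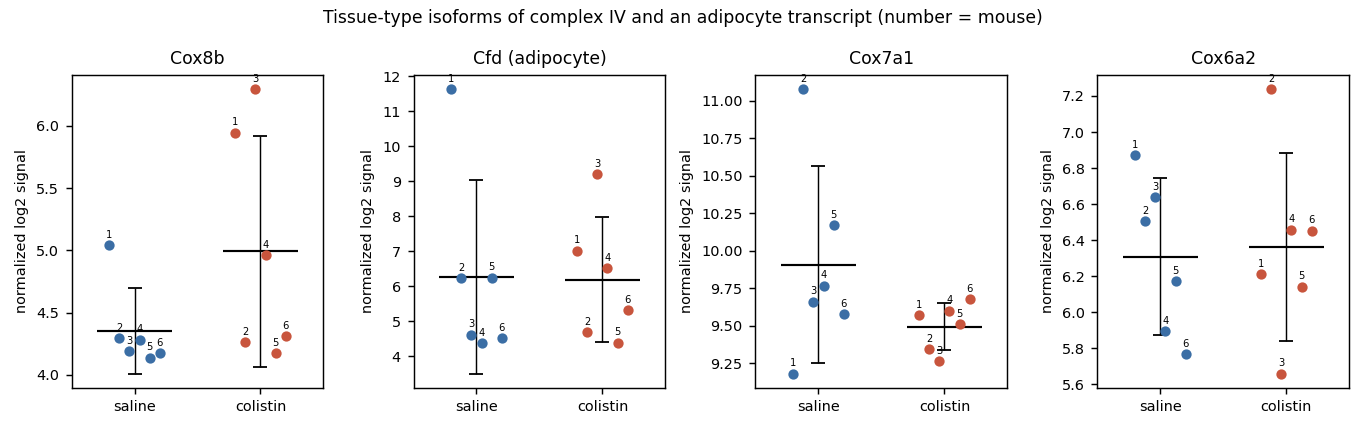
Normalized log2 signal (vertical axis, scaled separately) of Cox8b, the adipocyte transcript Cfd, Cox7a1 and Cox6a2 in each mouse, numbered, with group means as lines and SD as bars. Saline mouse 1 and colistin mice 1, 3 and 4 hold the 4 highest values of both Cox8b and Cfd, while the highest Cox7a1 values are those of saline mice 2 and 5.

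ATP synthase gave 14 genes, 7 below 0 and 7 above, with a median of -0.01 and 0 called. Among the 5 subunits of its catalytic F1 head and central stalk, Atp5e, the small epsilon subunit, was below 0. The other 4, Atp5a1, Atp5b, Atp5c1 and Atp5d, ran from 0.02 to 0.09. Atp5e had a log2 signal of 6.21 to 7.24 in saline mice (median 6.69) and 6.16 to 6.61 in colistin mice (median 6.28). Saline mice 2, 5 and 4 lay above every colistin mouse. The change was -0.43 ± 0.16 (SE; adjusted p = 0.361, limma), with an interval of -0.78 to -0.08; it was -0.43 on each BeadChip and -0.20 without saline mice 2 and 5.

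Atp5b, the catalytic beta subunit, was among the 8 brightest of all probes on every array, with raw signals of 19424 to 25760. Normalization gives the brightest probe the same value on every array, and likewise the next brightest, and 5 colistin mice were at 14.58 with the sixth, mouse 5, at 14.53. Its change of 0.08 ± 0.075 (SE; adjusted p = 0.671, limma) can therefore say little about this gene.

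In the membrane part and the outer stalk, the 9 genes ran from -0.21 to 0.27. Atp5g2 encodes the c subunit of the rotor ring. It was at 9.25 to 10.28 in saline mice (median 9.96) and 10.01 to 10.39 in colistin mice (median 10.10). Saline mouse 2 held the lowest value. The change was 0.27 ± 0.14 (SE; adjusted p = 0.503, limma), 0.14 without saline mouse 2 and 0.13 without saline mice 2 and 5. Atp5h, a stalk subunit, was at 10.35 to 11.06 in saline mice (median 10.70) and 10.13 to 10.67 in colistin mice (median 10.54), a change of -0.21 ± 0.13 (SE; adjusted p = 0.534, limma), and -0.14 without saline mouse 5 or without colistin mouse 4.

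Probes of the same gene mostly pointed the same way. Of 20 genes with several kept probes, 14 had all changes of one sign. Atp5f1, now Atp5pb, a subunit of the outer stalk, was the gene whose probes differed in sign by more than 0.3 on the log2 scale. Its brightest probe was at 0.16 ± 0.13 (SE; adjusted p = 0.616, limma), and at 0.06 without saline mouse 2 or without saline mice 2 and 5. The others were at 0.06, -0.04 and -0.19; the last was the dimmest and was detected on 9 arrays. Cox4nb (now Emc8), Atp5s (Dmac2l) and Atp5sl (Dmac2) share the name rule but are no subunits; they were at 0.09, -0.03 and 0.25.

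Averaged over each complex, the colistin mice were closer together than the saline mice and overlapped them in every complex. The mean difference of the 33 complex I genes from the saline mean ran from -0.13 to 0.17 in saline mice and from -0.16 to -0.07 in colistin mice, a colistin mean of -0.11 ± 0.038 (SD, n = 6). Saline mouse 1 was lower than 4 of the 6 colistin mice. For complex II the range was -0.21 to 0.29 in saline mice and -0.29 to -0.02 in colistin mice. For complex V it was -0.08 to 0.11 in saline mice and -0.10 to 0.03 in colistin mice.

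**Figure D4:**
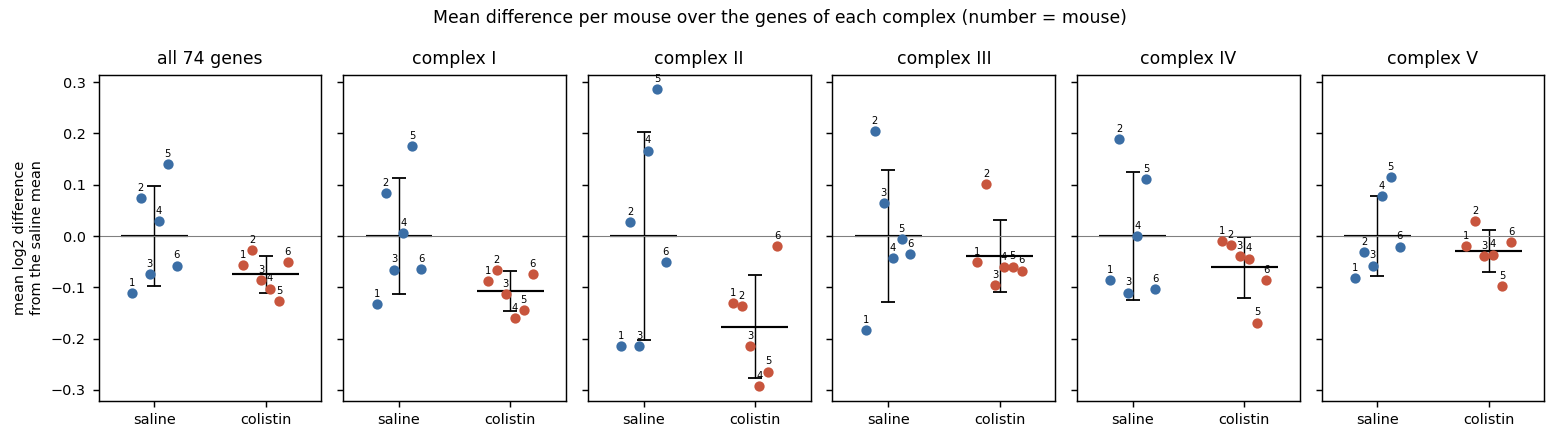
Mean log2 difference from the saline mean (vertical axis) over all 74 genes and over the genes of complexes I to V, one point per mouse with its number, group means as lines and SD as bars. For complex I all 6 colistin mice lie below 0, near saline mice 1, 3 and 6, and saline mice 2 and 5 lie at the top.

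The BeadChips were compared because each holds 3 mice of each group. The median change of the member genes was -0.05 on BeadChip 1 and -0.11 on BeadChip 2, and 47 of 74 genes (63.5%) had the same direction on both, against 63.4% of all kept probes. For complex I the medians were -0.07 and -0.12, with the same direction for 23 of 33 genes. The test of the difference between BeadChips called 0 members (limma; smallest adjusted p = 0.9998), with 1 at an unadjusted p under 0.05; over all kept probes 0 were called and 2.55% were at that unadjusted threshold. Atp5e, Ndufb9 and Ndufc1 were below 0 on both.

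**Figure D5:**
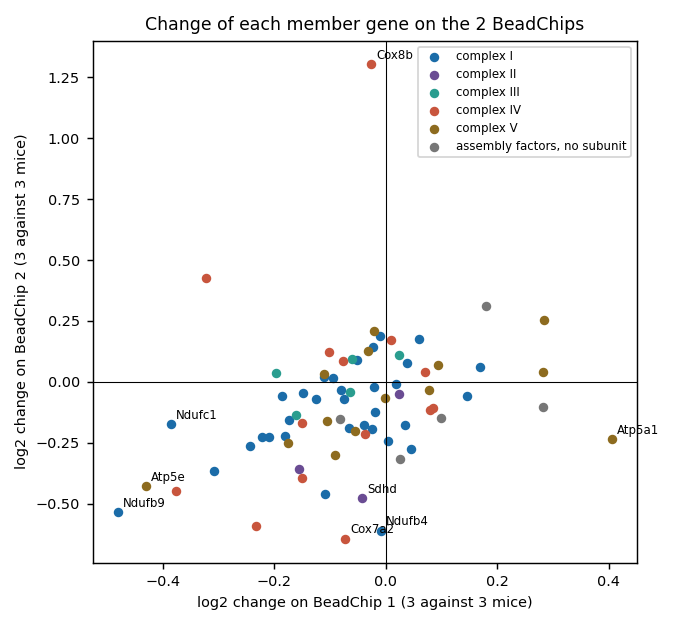
Log2 change of each of the 74 member genes on BeadChip 1 (horizontal axis) and BeadChip 2 (vertical axis), 3 against 3 mice each, coloured by complex with Ndufa4 drawn as complex IV. Of the points 47 lie in the quadrants of equal sign; Cox8b, at -0.03 and 1.30, lies farthest from the rest.

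Other genes of mitochondrial respiration, grouped in lists, were also uncalled. Of 7 subunit genes encoded by mitochondrial DNA 6 were below 0, with a median of -0.08, which was -0.03 on BeadChip 1 and -0.30 on BeadChip 2. Among them mt-Nd5 of complex I was at -0.66 ± 0.24 (SE; adjusted p = 0.327, limma) and mt-Atp6 at -0.28 ± 0.19 (SE; adjusted p = 0.586, limma). The log2 signal of mt-Nd5 was highest in saline mice 5 and 2, at 8.44 and 8.22, and lowest in colistin mouse 4, at 6.25. Saline mouse 5 was also highest for mt-Atp6, at 12.88. Of 15 genes of pyruvate dehydrogenase and the citric acid cycle 10 were above 0, with a median of 0.05, and Ogdh, a subunit of the 2-oxoglutarate dehydrogenase complex, was at 0.43 ± 0.23 (SE; adjusted p = 0.502, limma). Of 19 assembly factors 12 were above 0, with a median of 0.12. Saline mouse 2 was the lowest mouse for the last 2 lists. Its mean log2 level over the citric acid cycle list was 9.94, against 10.15 to 10.51 in the other saline mice, and Ogdh was at 8.7, against 9.4 to 10.4. Over the assembly factors its mean level was 7.96, against 8.25 to 8.48 in the other saline mice and 8.29 to 8.37 in colistin mice.

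Among the assembly factors Lrpprc, which stabilises mitochondrial messenger RNA, was at 0.42 ± 0.19, and Tmem70, needed for ATP synthase assembly, at -0.26 ± 0.13 (SE; adjusted p = 0.448 and 0.483, limma). The log2 signal of Lrpprc was 6.8 in saline mouse 2, against 7.7 to 8.2 in the other saline mice and 8.1 to 8.3 in colistin mice. The 16 regulators of mitochondrial gene expression had a median of -0.01. Of these Peo1, the mitochondrial DNA helicase Twinkle, was at 0.42 ± 0.13 (SE; adjusted p = 0.253, limma), Tfb1m at -0.19 ± 0.089 (SE; adjusted p = 0.460, limma) and Ppargc1a, the coactivator PGC-1alpha, at -0.13 ± 0.15 (SE; adjusted p = 0.723, limma). The log2 signal of Peo1 was 5.34 in saline mouse 2, against 5.92 to 6.25 in the other saline mice and 6.23 to 6.56 in colistin mice. Cytochrome c and subunits outside the name rule gave 7 genes with a median of 0.02, among them Usmg5, a small ATP synthase subunit, at -0.46 ± 0.21 (SE; adjusted p = 0.445, limma) and Etfdh at 0.16 ± 0.12 (SE; adjusted p = 0.620, limma). Usmg5 was dim, with a raw signal of at most 128.3, and was highest in saline mice 5 and 2, at 6.39 and 5.95. The 3 carrier genes linked to proton leak had a median of 0.07, with Slc25a4, an ADP/ATP carrier, at -0.16 ± 0.17 (SE; adjusted p = 0.720, limma) and Slc25a14 at 0.08 ± 0.098 (SE; adjusted p = 0.741, limma).

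Marker lists of other kidney cells were read in the same way. All 9 measured endothelial markers were below 0, with a median of -0.52 and 0 called; their mean log2 level was 6.78 to 8.02 in saline mice and 6.99 to 7.34 in colistin mice. Of 8 macrophage markers 7 were below 0 (median -0.42; 5.85 to 6.64 against 5.58 to 6.20), and of 6 fibroblast markers 5 (median -0.56; 6.18 to 6.92 against 5.72 to 6.05), with 0 called in either list. The 11 proximal tubule markers had a median of 0.10, with 9 above 0 and 0 called. The 7 thick ascending limb markers had a median of 0.01 and the 5 collecting duct markers one of -0.23, with 0 called in either. Of the 4 distal convoluted tubule markers all were below 0, with a median of -0.20. Among them Pvalb, which encodes parvalbumin, fell, by 1.13 ± 0.19 on the log2 scale (SE; adjusted p = 0.0136, limma). The part of the cell makeup in the subunit values was not tested.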

How the data were processed

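Total RNA from 12 kidneys was read on single-colour arrays. The deposited probe table holds mean bead intensities on a linear scale with a detection p-value per probe and array, per the file headers. The lowest signal was 74.7, so no background had been subtracted. Per the submitters' processing notes, GenomeStudio and Partek were used; which steps they ran is not given in the sources used here. In their deposited matrix, the authors' normalized intensities rank the probes of an array as its raw signals do (Spearman rho 1) and reached down to -11.85; they served as an alternative. The tables averaged per gene symbol were not used, and 0 columns of unknown sample were present.

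Background correction and quantile normalization of the raw intensities were done by neqc (limma 3.58.1, R 4.3.3). Its offset of 16, added before log2 values were taken, compresses the changes of dim probes. Of 45281 probes 16179 were kept (detection p under 0.01 on at least 4 arrays). No 2 arrays held identical values. Each probe was fitted with lmFit and eBayes on group alone, and two-sided p-values were adjusted by Benjamini-Hochberg over all kept probes, with a threshold of 0.05; intervals are at 95%. The number of mice limits the precision. Tested on simulated data (16179 probes, 6 against 6 arrays), this comparison recovered 40% of changes of 0.5 and 82% of changes of 1 on the log2 scale, with 7 false calls. The simulated noise was independent between probes and had the same SD in both groups. In the data the saline SD was the larger for 78.8% of kept probes and single arrays stood apart, so these rates may not hold for them.

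A gene stands by its kept probe with the highest mean. The genes named are the 3 with the smallest p and the brightest of each complex, all of complex II, the tissue forms of complex IV, the 5 with the largest spread within groups, genes with probes of opposite sign, members near the filter and, of each other list, the 2 with the smallest p; genes past an unadjusted 0.05 are named as well, some genes are not reported here by name or drawn in the plot of intervals, and Ppargc1a and the genes listed with their complex were added after their values were seen. The members, lists and markers were chosen with earlier results of these data known. No list was tested as a set. Promoters were scanned with Python 3.11.15. Same-numbered mice of the groups did not deviate together (correlations -0.26 to 0.12), so the numbers pair nothing. Alternatives covered the background correction, offset, normalization, filter, BeadChip, replicate block, array weights, averaging of probes and each mouse left out in turn.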

Additional observations from a re-analysis of the deposited data

Results flagged for a closer look

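Among 64 groups of 6 values (the named genes and the complex means, each in saline and in colistin mice), 9 had 1 mouse set apart from the others by a gap, relative to the group's range, over Dixon's 95% critical value. Chance sets apart about 1 in 20 independent groups that were not picked by their values. Here some genes were named for a wide spread or a small p, and the complex means share genes with them. The 9 can therefore not be judged against that rate. Colistin mouse 4 accounts for 4 of them: Cox6b1 was high at 13.83, with the next mouse at 13.55, and Ndufb9 (7.48, next 7.90), Ndufc1 (11.95, next 12.34) and Uqcr (12.76, next 12.94) were low. Colistin mouse 2 was high for Uqcrc2 at 13.03, with the next at 12.91, and for the complex III mean difference at 0.10, with the next at -0.05. Saline mouse 2 was high for Ndufc1 at 12.91, with the next at 12.58. Saline mouse 1 was high for Cox8b at 5.04, the 1 saline array on which this probe was detected. Colistin mouse 5 was low for Atp5b at 14.53, while the other 5 shared 14.58, a tie that normalization sets.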

How the results depend on the processing

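Of 26 alternatives, 1, the fit without saline mice 2 and 5, was added after seeing the data. Under every alternative 0 members were called, and the count of genes below 0 was 42 to 54. Under scale normalization the median was -0.035 for complex II and 0.076 for complex III, but the median of all kept probes moved to 0.17, so relative to it these lay lower. The median of all members was -0.034 there, and its 42 genes below 0 are counted against 0, not against 0.17. The complex II median was -0.042 on BeadChip 1 alone and -0.083 without saline mice 2 and 5. Without those 2 mice the complex I median was -0.018. With each mouse left out in turn, the median was -0.11 to -0.03 over all members, -0.13 to -0.05 for complex I, -0.29 to -0.16 for II, -0.11 to 0.02 for III, -0.05 to 0.01 for IV and -0.03 to 0.01 for V. Of 675 values of single named genes, 673 moved by less than the spread within groups, a loose bound: with no background correction Atp5e went from -0.43 to -0.24, Cox7b from -0.41 to -0.20 and Cox8b from 0.64 to 0.24. With the replicate number as a block the members' median stayed at -0.07, 0 members and 36 of all probes were called, against 74 without the block; the numbers do not pair the mice. Calls over all probes also depended on the setting: 471 with array weights, 329 without saline mouse 1, 298 on BeadChip 2 alone, 0 on BeadChip 1 alone, 27 among probes detected on all arrays, 33 with no detection filter, 25 with no background correction, 45 with an offset of 50, and 38 to 329 with a mouse left out. Members at an unadjusted p under 0.05 (limma) numbered 0 to 18, against 7 in the main fit. There were 18 without saline mouse 1, 13 without saline mouse 3, and 2 without saline mouse 2 or 5 or colistin mouse 4. On BeadChip 1 there were 0, and also 0 without saline mice 2 and 5. Under scale normalization, with all 12 mice, there was 1, with 42 genes below 0. The cause was not tested. The changes of dim probes, such as those of Atp5e, Cox7b and Cox8b, depend on the background correction. Changes of the brightest probes, such as that of Atp5b, are limited by the normalization.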
